A study of Arabidopsis thaliana with 2 samples.

Results

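The 5 Arabidopsis thaliana genes described here encode chitinases and other small or defence-related proteins: the chitinase family gene AT2G43620, the class V chitinase gene ChiC (AT4G19810), the defensin-like gene AT2G43530, the CAP family gene AT2G19970 and the leucine-rich repeat gene AT2G34930. They are 5 of 3592 genes that had a probe set assigned to a single gene, and each was read by 1 such probe set with a plain _at suffix. These genes were picked by name with their signals already known, so the differences between the arrays given for them are descriptions and were not tested.

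Chitinases cut chitin, a polymer of N-acetylglucosamine in fungal walls and insect cuticles that plants themselves do not make. Plants carry chitinases of structurally unrelated families, and many of these genes are switched on by infection, wounding or stress hormones, while others are active during growth. Defensins are small proteins held together by disulfide bridges, and several of them inhibit fungal growth. The CAP family includes the pathogenesis-related protein PR-1, a widely used marker of salicylate-dependent defence. Leucine-rich repeats form curved surfaces that bind other proteins or ligands, and many plant immune receptors contain them.

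The study hybridised RNA from whole seedlings of sks (snakeskin), an insertion mutant in the Col-0 accession, and RNA from unmodified Col-0 seedlings to 1 Affymetrix array each. Both genotypes were harvested at growth stage 1.0, when the cotyledons are open, after growth at 22 °C under 24 hours of light per day on Murashige-Skoog medium with 1% agar and 1% sucrose. The labels name neither the disrupted gene nor the number of seedlings behind each RNA, so the genotype could not be checked from a transcript. With 1 array per genotype there was no replicate, and no p-value, standard error or interval was computed. In RNA from whole seedlings, fewer cells of a type and less RNA per cell cannot be told apart.

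Signals are the deposited intensities, and a fold is the ratio of the signals on the 2 arrays. The highest of 23 blank probe sets, which target mouse, yeast and Bacillus sequences, read 16.8 on the sks array and 11.1 on the Col array. A fold is given as a lower bound where the dimmer signal lies at or under that array's highest blank. The bound sets the brighter signal against that blank and holds for the deposited scaling only. A probe set is called measured where the geometric mean of its 2 signals reached 19.4, the median over the 8247 probe sets that are not controls. All 9 hybridisation spikes were brighter on the sks array, by 1.12 to 1.85 times, and the 3′ GAPDH probe set was 4.14 times as bright as the 5′ one in sks and 2.94 times in Col. For ubiquitin this ratio was 4.65 in sks and 4.84 in Col. Of 10 organ and stage markers looked up, 4 had a probe set. The green tissue genes RCA and LHCB4.1 read 4224.3 and 4306.8 in sks against 5970.1 and 5954.7 in Col, the seedling shoot gene THI2.2 79.0 against 999.8, and the oil-use gene ICL 308.7 against 35.3. The part of these differences in the results below was not tested.

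Of the 5 genes, 4 had higher signals in sks and 1, ChiC, had a lower signal. Of all 4124 measured probe sets, 8.12% had a signal in sks that was higher by 2-fold or more, and for 12.4% it was lower by as much. All 5 genes are past 2-fold, which follows from how they were chosen.

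AT2G43620 had a signal of 1167.6 in sks and 33.9 in Col (probe set 18928_at). The sks signal was thus 34.4-fold higher, a log2 difference of 5.11, with both signals above the blanks. It ranked 2 among the 1716 measured single-gene probe sets when these were ordered from the highest log2 difference.

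ChiC, whose class V protein belongs to a chitinase family unrelated in fold to that of AT2G43620, read 36.4 in sks and 120.8 in Col (20420_at). Its signal was 3.32-fold lower in sks, a log2 difference of -1.73, and both signals were again above the blanks. From the low end of the same order it ranked 50, so it lies in a well-filled part of the distribution, unlike the other 4 genes.

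The 2 chitinases therefore differed in opposite directions. On the log2 scale the difference between sks and Col was 6.84 units larger for AT2G43620 than for ChiC. A change of scaling between the arrays by a constant factor moves both genes equally and leaves that value as it is.

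AT2G43530 encodes a defensin-like protein with the cysteine-rich knottin fold. It read 2148.5 in sks and 180.9 in Col (14491_at), which is 11.9-fold higher in sks and a log2 difference of 3.57. Its signal was well above the blanks on both arrays, so the ratio does not rest on a dim signal.

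AT2G19970, of the CAP family, read 139.0 in sks and 10.7 in Col (17249_at). The Col signal lay just under the highest blank of that array. Set against that blank at the deposited scaling, the signal was at least 12.5-fold higher in sks. No upper limit on this fold can be given from these arrays.

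AT2G34930, annotated as a disease resistance family protein with leucine-rich repeats, read 260.8 in sks and 20.6 in Col (12251_at). This was a 12.7-fold higher signal in sks and a log2 difference of 3.66, with a Col signal above the highest blank by less than 2-fold. In the order from the highest difference AT2G34930 ranked 9 and AT2G43530 ranked 10, with AT2G19970 counted at its deposited signals. No rank is given for AT2G19970, whose Col signal is in the blank range.

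**Figure D1:**
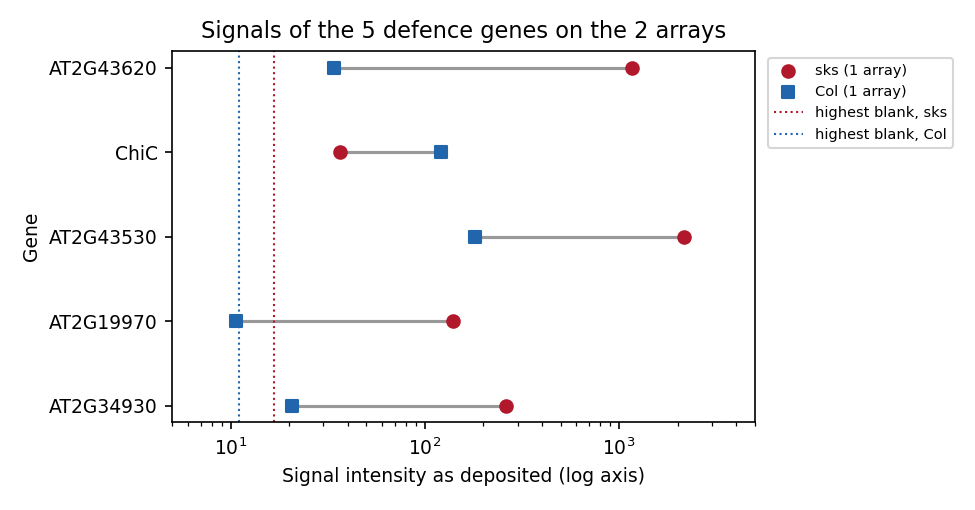
Deposited signal intensity (log axis) of the 5 genes on the sks array (circles) and the Col array (squares), 1 array each, joined by a line; dotted lines mark the highest blank signal of each array, 16.8 in sks and 11.1 in Col. The sks signal lies to the right of the Col signal for 4 genes and to the left for ChiC, and the Col signal of AT2G19970 lies at the blank line.

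**Figure D2:**
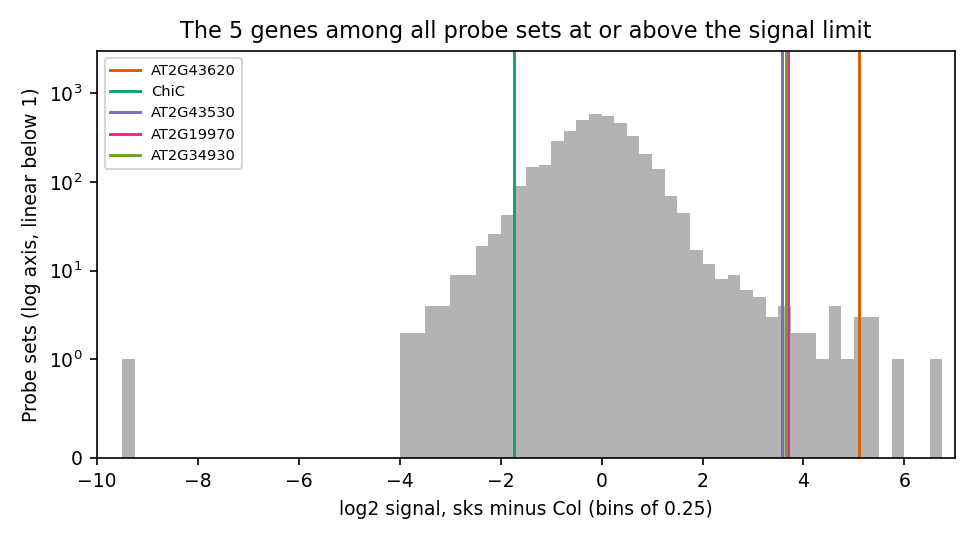
Number of measured probe sets (vertical axis, log scale above 1) in bins of 0.25 of the log2 difference, sks minus Col, over 4124 probe sets, with vertical lines at the 5 genes. AT2G43620 at 5.11, AT2G34930 at 3.66 and AT2G43530 at 3.57 stand in the sparse right tail; the line of AT2G19970 is drawn from its deposited signals, of which the Col signal is in the blank range, so its place is not exact. ChiC at -1.73 stands in the left flank.

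AT2G43530 and AT2G43620 lie near each other on chromosome 2, with 9 protein-coding genes and 2 other genes between them in the RefSeq gene order. The genes between and around them are given to set both differences beside those of their neighbours. Of the 9 protein-coding genes in between, 8 had a single-gene probe set and 6 were measured. None of the 6 was 2-fold or more higher in sks, where 7.34% of all 1622 measured genes (1 probe set each) were. At least 2-fold lower were 2 of the 6, against 12.4% of all measured genes.

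The 6 chitinase genes of this region stand in a row, with AT2G43620 as the last of them. CHI (AT2G43570), the first of the row, read 32.3 in sks and 44.8 in Col. AT2G43580 read 2.2 against 1.2 and AT2G43600 6.4 against 6.6. All 4 of these signals are within the blank range, so no difference can be read for either gene.

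AT2G43590, in the middle of the row, was lower in sks on both of its probe sets. One read 120.4 in sks and 442.2 in Col, a 3.67-fold lower signal and a log2 difference of -1.88. The other read 59.4 and 133.7, a log2 difference of -1.17, but at -0.99 it was just under 2-fold with an added offset. Neither carries a plain suffix. The first has the suffix _s_at, which marks probes shared with other transcripts, so its signal may belong in part to a related chitinase gene. How specific the second, with the suffix _r_at, is for this gene was not checked.

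AT2G43610, the chitinase gene next to AT2G43620 in the row, read 325.0 in sks and 177.8 in Col. That is 1.83-fold higher, in the same direction as AT2G43620 but within 2-fold. Besides AT2G43620, which was picked by name, the row thus held 1 measured gene past 2-fold, which was lower, 2 within 2-fold and 2 genes in the blank range.

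At the other end of the region, the closest measured neighbours of AT2G43530 were AT2G43540, at 87.7 in sks and 73.9 in Col, and AT2G43550, at 105.4 and 63.7. AT2G43550 also encodes a small knottin protein, and its log2 difference was 0.73, against 3.57 for AT2G43530. The protease inhibitor genes TI1 and TI2, which directly precede AT2G43530, and AT2G43535, which follows it, had no single-gene probe set here. AT2G43560, an FKBP-type prolyl isomerase gene, read 286.4 in sks and 633.2 in Col and was 2.21-fold lower.

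Farther out, GLX2-1, a glyoxalase gene, read 214.0 in sks and 296.6 in Col. AT2G43460, a ribosomal protein gene, read 457.0 and 294.4. AT2G43445 and AT2G43480 had all signals in the blank range. On the far side of AT2G43620, AT2G43670 read 11.7 against 29.5, with its sks signal in the blank range and its mean signal below the signal limit. Over the whole region with 15 genes on each side, 8 neighbours were measured, all of them before AT2G43620 in gene order. Past AT2G43620 only AT2G43670 had a single-gene probe set, so no measured gene covers that side. The log2 differences of the 8 ran from -1.88 to 0.87 with a median of -0.11. The median over all measured genes was -0.09.

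Set side by side, AT2G43620 and AT2G43530 were higher in sks by 5.11 and 3.57 log2 units. The difference was 1.54 units larger for AT2G43620, which is 2.90 times as large a ratio. The spread between probe sets of 1 gene on these arrays had a pooled SD of 0.65 log2 units over 80 genes. That spread comes from the same 2 RNA samples and is no replicate error. It describes single probe sets and not a gap between 2 genes, and the gap was not tested against it.

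**Figure D3:**
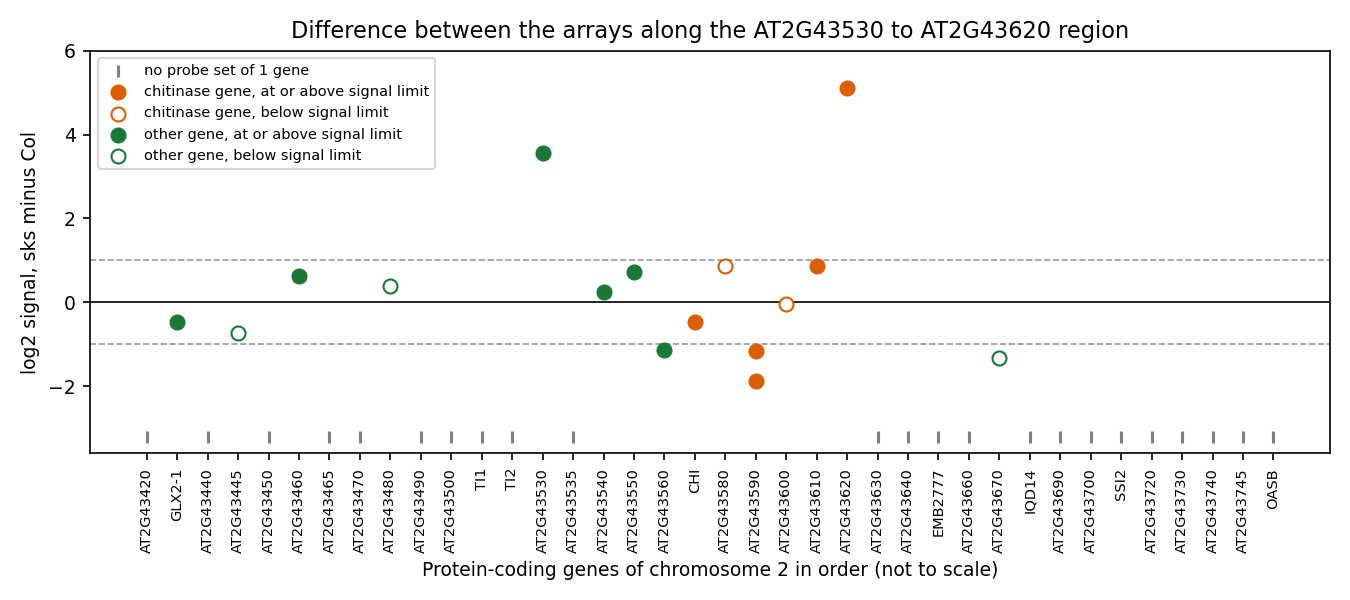
Log2 signal difference, sks minus Col (vertical axis), of each single-gene probe set for the protein-coding genes from 15 genes before AT2G43530 to 15 genes after AT2G43620, in gene order (horizontal axis, not to scale); orange marks chitinase genes, filled symbols are at or above the signal limit, grey ticks are genes without a single-gene probe set, and dashed lines mark 2-fold. AT2G43530 and AT2G43620 stand at 3.57 and 5.11, and every measured gene between them lies between -1.88 and 0.87.

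ChiC also lies in a row of related genes, the class V chitinases of chromosome 4. All 9 of these genes in the chitinase list had a single-gene probe set, and ChiC was the only one measured. The other 8 had both signals in the blank range, with at most 10.1 in sks and 11.0 in Col. At this signal the lower level of ChiC in sks cannot be set against the rest of its row. The lipase-like acyltransferase gene AT4G19860, beyond the row, read 32.9 in sks and 56.5 in Col.

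Around AT2G19970, the next CAP gene in order, AT2G19980, had no single-gene probe set, and the one after it, PR-1-LIKE, read 18.5 in sks and 13.7 in Col. The PR-1-LIKE signals were close to the highest blanks and below the signal limit. The measured neighbours AT2G19940 and AT2G20010 read 33.1 and 60.1 in sks against 41.9 and 70.1 in Col, and AT2G19930 and HBT were in the blank range. Near AT2G34930, only AT2G34970 had a single-gene probe set, and it read 16.5 in sks and 14.8 in Col.

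Among chitinases as a group, 16 of 24 listed genes had a single-gene probe set and 6 were measured. In sks, 2 of these were higher by 2-fold or more, 2 were lower by as much and 2 lay within 2-fold, where 7.34% of all measured genes were higher and 12.4% lower. The list median was 0.20, against -0.09 over all measured genes. The 2 chitinases picked by name are among the 6. These genes make up 2 of the 4 calls, and nothing about the list is read from them. Besides them, 1 of 4 was higher (AT4G01700) and 1 of 4 lower (AT2G43590).

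AT4G01700, a chitinase gene outside both rows, read 211.2 in sks and 46.0 in Col. The sks signal was 4.59-fold higher on a probe set with a plain suffix. It stayed at least 2-fold higher under all 7 treatments of the signals, as did AT2G43620, whereas ChiC stayed at least 2-fold lower under the same 7. These 7 treatments all use the same 2 arrays, so they add no replicate. Besides the 2 chitinases picked by name, AT4G01700 was higher and AT2G43590 lower by 2-fold or more. For AT2G43590 this was read on probe sets without a plain suffix.

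In the CAP family, 10 of 22 listed genes had a single-gene probe set and 6 were measured. In sks, 2 of the 6 were higher by 2-fold or more, 1 was lower by as much and 3 lay within 2-fold, against 7.34% higher and 12.4% lower among all measured genes. Besides AT2G19970, which was picked by name, 1 of 5 was higher and 1 of 5 lower. The list median, with AT2G19970 included, was -0.32, against -0.09 over all measured genes. AT4G07820 read 96.4 in sks and 38.9 in Col on 1 probe set, while its other 3 probe sets read 1.3 or less on both arrays, so its probe sets disagree. AT4G31470 read 16.0 in sks, within the blank range, and 57.6 in Col, at least 3.43-fold lower. AT4G33710, AT4G33730 and AT4G25790 were within 2-fold, with log2 differences of -0.20, -0.44 and -0.92.

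A pair of CAP genes fell below the signal limit because they were bright on 1 array only. AT4G33720 read 103.6 in sks and 0.3 in Col on 1 probe set, and 26.5 and 0.8 on the other. These are lower bounds of 9.33-fold and 2.39-fold higher in sks. Neither probe set carries a plain suffix (_r_at and _s_at), and the suffix _s_at of the second marks shared probes. AT4G25780 went the other way, at 5.0 in sks and 56.5 in Col, at least 3.36-fold lower. AT4G33720 thus had the direction of AT2G19970, and AT4G25780 the opposite one. AT5G26130 read 1.0 in sks and 0.4 in Col, within the blank range.

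Of the defensins and knottins, 7 of 18 listed genes had a single-gene probe set and 4 were measured. AT2G43530, picked by name, was the only one of the 4 at least 2-fold higher. The median, with AT2G43530 included, was 0.56, against -0.09 over all measured genes. Besides AT2G43530, 0 of 3 passed 2-fold in either direction, with 7.34% higher and 12.4% lower among all measured genes. LCR69 and LCR68, plant defensin genes with bright signals, read 2401.0 and 1452.2 in sks against 1834.7 and 1817.0 in Col. LCR67, the defensin PDF1.1, read 33.1 in sks and 9.3 in Col. It was at least 2.98-fold higher, with the Col signal in the blank range and the mean below the signal limit. LCR72 and PDF2.1 were in the blank range on both arrays.

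Other pathogenesis-related proteins and thionins had 5 measured genes of 13 listed. By 2-fold or more, 2 of them were higher in sks and 1 was lower, with 7.34% and 12.4% among all measured genes. The list median was 0.74. AT2G38870, a proteinase inhibitor gene of the PR-6 family, read 1746.3 in sks and 532.0 in Col and was 3.28-fold higher. OSM34, an osmotin-like gene, read 360.1 in sks and 216.0 in Col. The glucanase gene AT4G16260 had a Col signal of 148.7 and was 1.34-fold higher in sks. The antimicrobial thionin gene THI2.1 (487.9 in sks and 11.4 in Col on its plain-suffix probe set) and its relative THI2.2 differed in opposite directions. THI2.2, the 1 lower gene of this list, is also the seedling shoot marker given above. The probe sets of THI2.1 disagree, since its _s_at probe set read 156.4 against 4.8 but its _i_at probe set 15.2 in sks, within the blank range, against 30.4.

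Of 20 listed leucine-rich repeat defence genes, AT2G34930 was the only one with a single-gene probe set, so it cannot be compared with its family. Of 33 listed defence regulators only WRKY6 and EIN3, transcription factor genes of the defence and ethylene pathways, had one. WRKY6 read 61.4 in sks and 55.0 in Col, and EIN3 1555.3 and 1687.4. PR-1 itself, the glucanase PR-2 and the jasmonate-responsive defensin PDF1.2 had no single-gene probe set here. These reporters of the salicylate and jasmonate pathways were therefore not read by name. Whether any of the 4383 unnamed probe sets targets them cannot be told. Over all lists, 19 measured genes remained besides the 5 genes, and 4 of them were higher in sks and 3 lower by 2-fold or more. The shares over all 1622 measured genes were 7.34% higher and 12.4% lower, and nothing particular to the lists is read from these few genes.

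**Figure D4:**
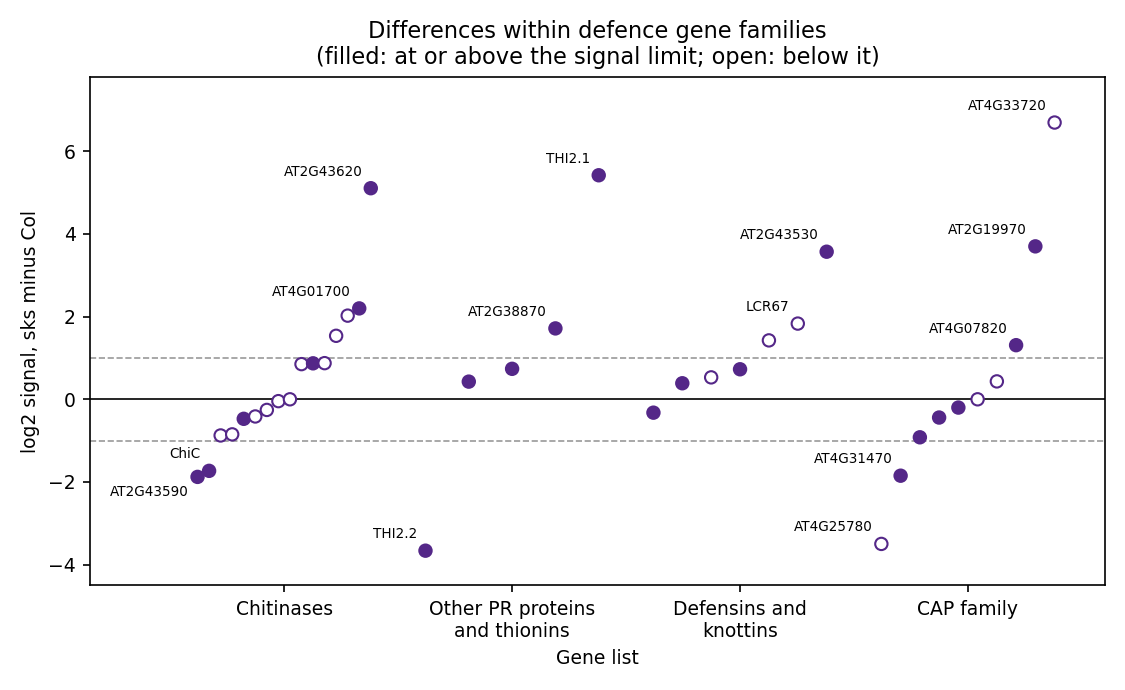
Log2 signal difference, sks minus Col (vertical axis), of each gene with a single-gene probe set in 4 defence gene lists (horizontal axis), 1 probe set per gene, sorted within each list; filled points are at or above the signal limit, open points below it, and dashed lines mark 2-fold. Names mark genes past 2-fold that are above the blanks on at least 1 array; chitinases, thionins and CAP genes have named points on both sides of 0, and points with a dimmer signal in the blank range, such as AT2G19970 and AT4G33720, are not exact.

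The genes most like the 5 in their signals on both arrays were found as the 2 genes at the smallest distance in log2 signal over the 2 arrays. For AT2G34930 the nearest was AT1G27020, at 279.9 in sks and 19.7 in Col, and the next AT3G47380. For ChiC they were AT2G32090, at 33.0 and 131.0, and AT2G42900, at 40.9 and 112.5. For AT2G43620 the nearest was AT1G65500, at 684.5 and 29.5, and then AT4G24340. AT2G43530 had AT2G14900 and AT2G47780, and AT2G19970 had AT4G22470 and AT4G02360. The distances ran from 0.12 for AT1G27020 to 1.66 for AT4G24340. At the larger distances the pairs were not close, since AT4G24340 read 756.4 in sks and 98.4 in Col. With 2 arrays, likeness of this kind says at most that a similar pair of signals was read.

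**Figure D5:**
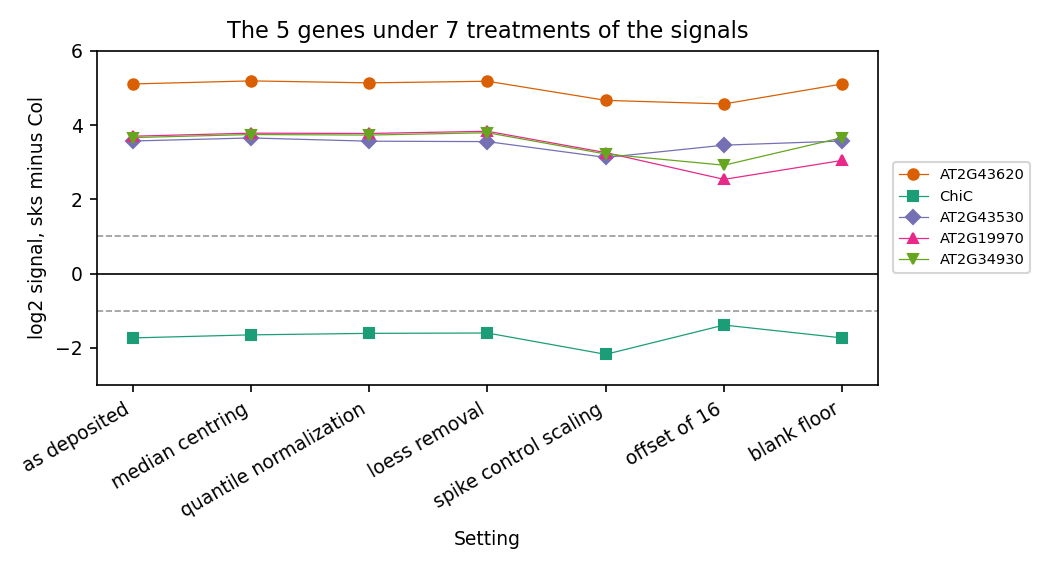
Log2 signal difference, sks minus Col (vertical axis), of the 5 genes under 7 treatments of the signals (horizontal axis; lines only join points of a gene), with dashed lines at 2-fold. AT2G43620 stays between 4.57 and 5.19 and ChiC between -2.17 and -1.38, while AT2G19970, with a Col signal in the blank range and so no exact value, ranges from 2.54 to 3.83.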

How the data were processed

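The authors deposited 1 linear signal intensity for each of 8297 probe sets on each array, and which software summarised the probes is not given in the sources used here. After trimming 2% at each end, the means of the deposited intensities, 100.2 in sks and in Col, differed by less than 1%, so no scaling was added. The scanner background averaged 61.92 and 57.92, per the labels. Signals below 1 were set to 1 and log2 was taken. The 50 control probe sets were left out. The platform annotation, which can be old, gave 3794 probe sets 1 gene, 70 several and left 4383 unnamed; 3784 matched the RefSeq table of TAIR10.1 by gene ID, used for names and gene order only. For lists, the probe set with the highest mean log2 signal stood for a gene. The members, the 6 lists of 130 entries, the blanks and the settings were chosen with earlier results of these data known. Named are the 5 genes, their neighbours (15 genes on each side of the chromosome 2 region, 5 elsewhere), all chitinase, defensin and CAP genes with a probe set (the class V row by its range), the measured genes of the other lists and 2 nearest genes each. Counting was tested on simulated data with a fixed, small noise, which checks the counting step and not the calls made here. Alternatives were 3 other scalings of the arrays (median centring, quantile, loess), spike scaling, an offset of 16 and a floor at 16.8, plus other filters and limits. Python 3.11.15, pandas 2.3.3 and statsmodels 0.14.6 (loess) were used. The number of arrays limits the precision.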

Additional observations from a re-analysis of the deposited data

How the results depend on the processing

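Leaving out a replicate was not possible. No paired analysis was possible because sks and Col were read on 1 array each. Direction and the 2-fold limit held for all 5 genes under the 6 alternatives (median centring, quantile normalization, loess removal, spike control scaling, an offset of 16, a floor at the highest blank). The log2 difference of AT2G19970 was 2.54 with the offset and 3.05 with the floor, that of AT2G34930 2.92 with the offset, and the gap between AT2G43620 and ChiC 5.95 with the offset, all by construction, since these treatments compress dim signals. The gap between AT2G43620 and AT2G43530 ranged from 1.11 to 1.63. The counts of probe sets past 2-fold were 335 higher and 510 lower. They were 135 higher and 1092 lower with spike control scaling, 222 higher and 334 lower with the offset, and 1008 higher and 1258 lower without a filter on low signals. A filter at the 75th percentile left 194 higher and 259 lower, a limit of 1.5-fold gave 751 higher and 1048 lower, and one of 3-fold gave 105 higher and 185 lower. Plain-suffix probe sets of single genes gave 96 higher and 175 lower. All of these follow from construction, since filters and limits change the number tested or called, the offset compresses dim signals and spike scaling lowers every log2 difference by 0.44. Without a filter, 4 chitinases, 3 defensins and 3 CAP genes were at least 2-fold higher, and 2 CAP genes were lower. The added chitinases and LCR72 were in the blank range on both arrays, so no difference can be read for them. LCR67 and the CAP gene AT4G33720, also added, were in the blank range in Col, and the added lower CAP gene AT4G25780 in sks. In the CAP list, 1 gene was higher and 2 were lower with spike scaling, and 1 was higher with the mean over probe sets. The chitinase median of 0.20 became -0.02 without a filter, where genes in the blank range are counted too. With spike scaling that median became -0.24, through the same shift of all genes, so its place relative to other genes is unchanged by it. Of the other genes named within 2-fold, AT2G43540, LCR69, AT4G16260, WRKY6, PR-1-LIKE and AT2G34970 changed sign with that shift. Dim signals limit what can be read: 1471 of 3592 genes lay in the blank range on both arrays.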
